A study of Mus musculus with 8 samples.

Results

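Messenger RNAs of 1877 mouse brain genes that end at either of 2 polyadenylation sites in the same last exon, over 100 and up to 500 bases apart, were compared between Cstf2 D50A mice and wild-type mice. The pairs were taken from a table of 7951 genes by the distance between the positions of their sites, with a mean of 20 or more reads for both sites together over 8 libraries. They make up 23.6% of the table, and 15 further pairs at this distance had fewer reads. The mutant group was 5 mice labelled Cstf2D50A, an aspartate-to-alanine exchange at residue 50 of CSTF2, and the wild-type group was 3 mice. All were on the C57BL/6NCrl background as a congenic colony with wild-type littermates, untreated, and were killed at 50 days of age. Per the protocol, total brain was homogenised whole, so that each library mixes brain regions and cell types, in proportions that may differ between libraries. The labels give neither the sex nor the litter of a mouse, nor whether the mutants carried 1 or more copies of the X-linked allele.

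Most mammalian genes can be cleaved and polyadenylated at more than one place. Where the alternative sites lie in tandem in the last exon, the protein is usually the same and only the 3′ untranslated region is longer or shorter, which adds or removes binding sites for microRNAs and RNA-binding proteins. CSTF2 is the subunit of the cleavage stimulation factor whose RNA recognition motif contacts the U- and GU-rich element downstream of the cleavage site. The libraries were made with a kit that primes on the poly(A) tail, so reads pile up where transcripts were cleaved, and the distal share used below is the percentage of a pair's reads that fell on the site farther from the transcription start.

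The 1877 pairs held 2316199 to 3090684 reads per library in mutants and 2295822 to 4159779 in wild type, which was 22.7% to 23.9% of a library's reads in the table. The median pair had 284 to 521 reads per library, and 0 pairs were without reads in any library. The libraries differed in the level of cerebellar marker transcripts, and whether their content of cerebellar tissue differed was not tested. Marker sums are given as CPM, reads relative to the library's reads in the tested pairs, after TMM scaling. For 8 measured of 11 cerebellar granule cell markers the sum was 509, 487, 555, 597 and 2148 CPM in mutants 1 to 5. In wild types 1 to 3 it was 2776, 2151 and 1934 CPM. Mutants 1 to 4 were thus apart from mutant 5 and all wild types. In every fit of all 8 libraries below, only mutant 5 separates genotype from this marker level, so the 2 can hardly be told apart. For 6 of 9 Purkinje cell markers the sums were 718, 717, 719.9, 696 and 1567 CPM in mutants, against 1951, 1612 and 1498 CPM in wild types. None of these markers was at 0 in all libraries. With mutant 5 counted, the genotypes overlapped in the granule and Purkinje cell lists, as they did in the other marker lists. The sums of the other lists follow. They were 3564 to 4468 CPM in mutants and 4163 to 5257 CPM in wild type for 7 of 10 oligodendrocyte and 1183 to 1974 CPM in mutants and 1116 to 1694 CPM in wild type for 3 of 7 astrocyte markers. Levels were 241 to 279.8 CPM in mutants and 231 to 299 CPM in wild type for 4 of 7 microglia markers, and 468 to 782 CPM in mutants and 284 to 627 CPM in wild type for 7 of 9 markers of cortex and hippocampus. The sums were 424 to 649 CPM in mutants and 383 to 516 CPM in wild type for 6 of 8 striatal and 206 to 533 CPM in mutants and 169.6 to 361 CPM in wild type for 3 of 7 endothelial and pericyte markers. Of these other lists, only the striatal sums also set mutants 1 to 4 apart. They were 648, 649, 593 and 572 CPM there, above mutant 5 at 424 CPM and above all wild types. Sums came to 916 to 1679 CPM in mutants and 1199 to 1528 CPM in wild type for 3 of 6 choroid plexus and ependymal, and 4033 to 7007 CPM in mutants and 3909 to 9215 CPM in wild type for 2 of 5 blood markers. A fit with the granule cell marker sum as a further term is given below for the edgeR counts of the class and of the gene lists. That sum nearly follows genotype, since only mutant 5 lies among the wild types. The fit therefore has little power for a genotype difference, and its lower counts do not show where a difference comes from.

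In most of these genes both sites were used. The distal share, averaged over the 8 libraries, lay between 10% and 90% in 1155 pairs (61.5%), under 10% in 330 (17.6%) and over 90% in 392 (20.9%). The median pair had a distal share of 57.3% in mutants and 56.4% in wild type, and the quartiles over all libraries were 20.5% and 86.6%. The distribution was U-shaped, with the outermost steps of 10 points holding the most pairs in both genotypes. By distance, the median share over all libraries was 56.9% for 670 pairs up to 200 bases apart, 54.9% for 524 pairs over 200 and up to 300 apart, 57.2% for 376 pairs over 300 and up to 400 apart and 55.8% for 307 pairs over 400 apart. These medians are close to each other beside the quartiles of the class. At the edges of the class, the median share of 44 pairs within 5 bases inside the lower limit was 64.8% in mutants and 56.6% in wild type, beside 59% in mutants and 63% in wild type for 48 pairs within 5 bases outside it. It was 63% in mutants and 61.4% in wild type for 10 pairs within 5 bases inside the upper limit, beside 63.3% in mutants and 66.7% in wild type for 14 pairs within 5 bases outside it. The member with the fewest reads was Igsf10 with a mean of 20, and the pair left out with the most was Ssfa2 with 19.1.

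**Figure D1:**
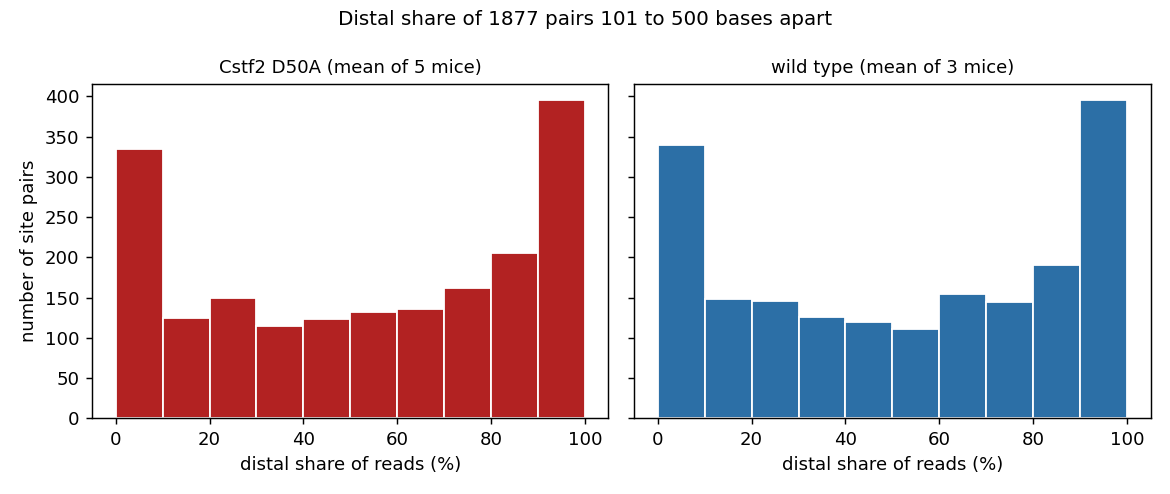
Number of site pairs (vertical axis) by mean distal share of reads in percent (horizontal axis, steps of 10 points) for the 1877 pairs, with the mean of 5 Cstf2 D50A mice on the left and of 3 wild-type mice on the right. Both histograms are highest at the 2 ends of the scale.

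The most abundant members showed 3 patterns of use. Nrgn, which encodes the postsynaptic calmodulin-binding protein neurogranin, used both sites, with a distal share of 80.2%, 78.4%, 75.1%, 77.1% and 75% in mutants 1 to 5, against 75.4%, 72.5% and 73.4% in wild types 1 to 3; the sites lie 456 bases apart. Its share overlapped between the genotypes by a narrow margin. Slc17a7, the vesicular glutamate transporter of cortical and cerebellar granule neurons, and Tuba1a, an α-tubulin, ended almost wholly at the distal site, at 99.8 ± 0.0311% in mutants and 99.7 ± 0.045% in wild type for Slc17a7 and 99.7 ± 0.0993% in mutants and 99.6 ± 0.107% in wild type for Tuba1a. In Tuba1b, another α-tubulin, the less used site held 65 reads in all 8 libraries together, while the pair averaged 45729 reads per library. Ndrg2, an astrocyte-rich gene of the N-myc downstream regulated family, ended almost wholly at the proximal site, with a distal share of 0.0638 ± 0.0127% in mutants and 0.077 ± 0.00705% in wild type (SD, n = 5 and 3 throughout). At the ends of the distance range, Xbp1, the transcription factor of the unfolded protein response at the shortest distance, had 1.98 ± 1.06% in mutants and 2.24 ± 0.80% in wild type, and Cdip1, a lysosomal and apoptosis-linked protein with sites 500 bases apart, had 68.5 ± 2.83% in mutants and 67.4 ± 5.11% in wild type. None of these pairs passed edgeR's test for a genotype difference (adjusted p from 0.418 to 0.982).

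The spread between mice set what could be resolved. For the log2 distal-to-proximal ratio, with 0.5 added to each count, the median standard deviation over pairs was 0.474 among mutants and 0.424 among wild types. It was 0.648 among mutants and 0.649 among wild types for 300 members with a mean of 20 to 100 reads, and 0.339 among mutants and 0.313 among wild types for 296 members with 2000 or more. The mean share differed between genotypes by a median of 5.87 points, without regard to direction, at 20 to 100 reads and by 0.576 points at 2000 or more reads. Well-covered pairs were therefore measured to within a smaller spread, and shares of pairs with few reads carry wide intervals, given below where they matter; these cover counting error only.

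Across the class, the middle pair's balance of sites was on average slightly more distal in mutant brains, with overlap between the genotypes. The median log2 distal-to-proximal ratio over the 1877 pairs was 0.56, 0.50, 0.34, 0.44 and 0.34 in mutants 1 to 5, against 0.37, 0.22 and 0.30 in wild types 1 to 3. Mutants 3 and 5 lay below wild type 1, so the genotypes overlapped. The means were 0.436 ± 0.0992 in mutants and 0.298 ± 0.078 in wild type, a difference of 0.138, which is a description of the class with no test. Among members with a mean of 200 or more reads the difference was 0.0603. Over all 1877 pairs, the median share was 57.6 ± 1.79% in mutants and 55.2 ± 1.33% in wild type. By distance, the difference in the median log2 ratio was 0.141 up to 200 bases, 0.146 over 200 and up to 300, 0.192 over 300 and up to 400, and 0.105 over 400. The libraries of the genotypes overlapped in each of these ranges. As a median over pairs of the mean share, the values up to 200 bases were 57.8% in mutants and 57.9% in wild type. In the further ranges they were 56.5%, 58% and 56.9% in mutants and 54.4%, 57.4% and 55% in wild type. For comparison, the same difference was 0.24 for 1685 pairs at most 100 bases apart, 0.141 for 2554 pairs over 500 and up to 2000 apart, 0.0789 for 1760 pairs over 2000 apart and 0.145 over all 7876 tested pairs. The differences between distance classes were not tested.

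**Figure D2:**
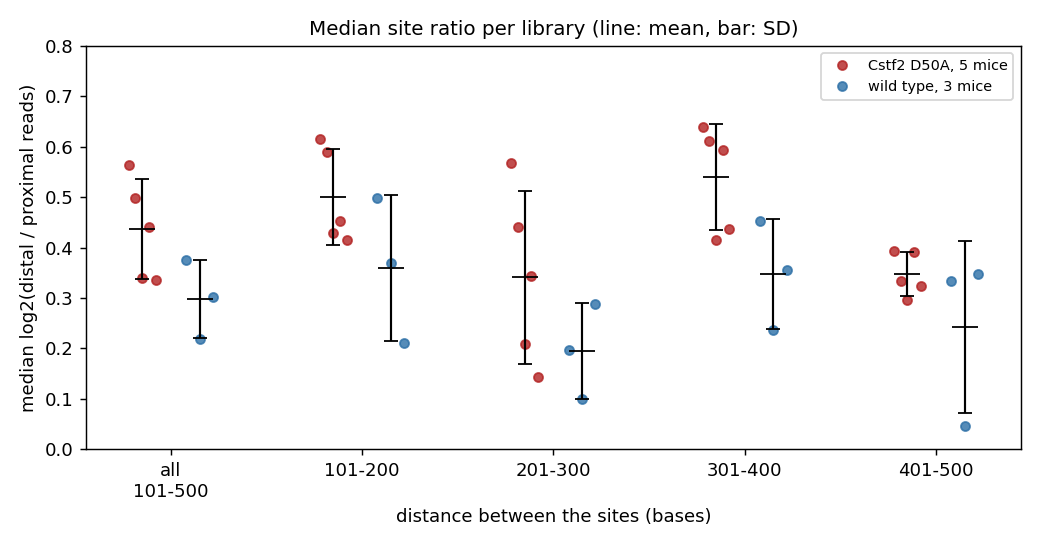
Median log2 distal-to-proximal ratio (vertical axis) in each library for all pairs of the class and for 4 distance ranges (horizontal axis, bases), with 5 Cstf2 D50A mice left of 3 wild-type mice, the mean as a line and the SD as a bar. The mutant mean lies above the wild-type mean in each range, and the points overlap.

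Pair by pair, edgeR's quasi-likelihood test of site usage called 0 of the 1877 members at an adjusted p under 0.05, as it called 0 of all 7876 pairs (0%), and the smallest adjusted p was 0.337. At an unadjusted p under 0.05, 145 members pointed toward the distal site, beside 8.67% of all pairs, and 95 toward the proximal site, beside 4.25% of all pairs. The members' own shares were 7.73% and 5.06%, near these backgrounds. The median log2 change was 0.0953 with 56.6% of members above 0, and 0.12 with 59.2% over all pairs. DESeq2 called 5 members toward the distal site (background 0.19%) and 2 toward the proximal site (background 0.0762%), and limma called 0, with 142 (background 8.51%) and 94 (background 4.19%) at an unadjusted p under 0.05. The mutants did not overlap the wild types in 34 members toward the distal (background 2.53%) and 27 toward the proximal site (background 1.63%). The unadjusted counts hung on single libraries: toward the distal site they were 76, 80, 129, 116 and 317 without mutants 1 to 5 in turn, beside 4.67%, 4.66%, 6.78%, 7.3% and 18.7% of all pairs. Without wild types 1 to 3 in turn they were 67, 39 and 278, beside 3.66%, 2.54% and 15.9%. Toward the proximal site the counts were 40, 36, 72, 75 and 205 without mutants 1 to 5 in turn, beside 2.09%, 2.07%, 3.33%, 3.54% and 8.98% of all pairs. Without wild types 1 to 3 in turn they were 27, 22 and 197, beside 1.68%, 1.27% and 8.49%. In the fit without mutant 5 the granule cell marker sums ran from 487 to 597 CPM in mutants and from 1934 to 2776 CPM in wild type. Genotype and granule cell marker level thus cannot be told apart at all in that fit. In the fit of all libraries they can hardly be told apart either, since only mutant 5 lies among the wild types in this sum. With that marker sum as a further term, the counts were 20 for the distal direction (background 0.901%) and 15 for the proximal direction (background 0.978%).

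**Figure D3:**
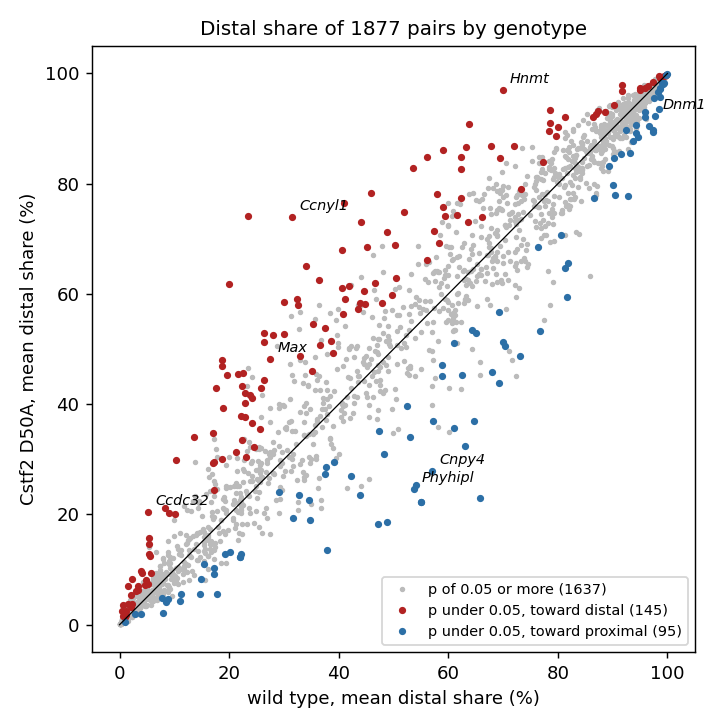
Mean distal share in percent of 5 Cstf2 D50A mice (vertical axis) against that of 3 wild-type mice (horizontal axis) for the 1877 pairs, with the line of equality. Coloured points are the 145 distal and 95 proximal pairs at an unadjusted edgeR p under 0.05, of which edgeR called 0 after adjustment.

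Hnmt had the lowest adjusted p of the class. It encodes histamine N-methyltransferase, which inactivates histamine in the brain. Its distal share was 97.9%, 98.1%, 95.9%, 96.5% and 96.6% in mutants 1 to 5, against 68.2%, 54.3% and 87.4% in wild types 1 to 3. All mutants lay within a few points of each other and above every wild type, and the wild types were spread widely, with wild type 3 nearest to the mutants. The means were 97 ± 0.948% in mutants and 69.95 ± 16.6% in wild type (edgeR log2 change 3.56, SE 0.571, adjusted p = 0.337; DESeq2 log2 change 3.64, SE 0.651, adjusted p = 0.000184). Over the alternatives tried the adjusted p ran from 0.000184 to 0.9998, and edgeR called the pair without wild type 3 (log2 change 4.34, adjusted p = 0.0224). The sites are at 23858822 and 23858431 on mm9 as the files give them, 391 bases apart; the files name no chromosome. The proximal site had 0.457 ± 0.211 CPM in mutants and 1.18 ± 0.272 CPM in wild type. The distal site had 15.6 ± 6.75 CPM in mutants and 4.13 ± 3.65 CPM in wild type. For single sites, here and below, CPM are relative to the library's reads over all listed pairs, without TMM scaling. A library had 35 to 283 reads for both sites, and the widest 95% Clopper-Pearson interval of a library spanned 34.5 points. In bulk tissue, fewer cells of a type and less RNA per cell cannot be told apart, and neither can a change of sites within cells and a change in the mix of cells.

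Maoa, the monoamine oxidase that prefers serotonin and noradrenaline, stood at 67 ± 3.8% in mutants and 67.3 ± 7.71% in wild type (edgeR log2 change -0.0235, SE 0.288, adjusted p = 0.977). Of 24 listed genes of histamine and monoamine metabolism, 3 were members. At an unadjusted edgeR p under 0.05, 2 of the 3, Hnmt among them, pointed toward the distal site, beside 8.67% of all pairs. With the granule cell marker sum as a term, 1 of the 3 pointed distally (background 0.901%).

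Max, the obligate dimer partner of MYC family transcription factors, was the best covered of the pairs that DESeq2 called toward the distal site and whose genotypes did not overlap. Its distal share was 55.5%, 53.6%, 48%, 46.5% and 37.5% in mutants 1 to 5, against 24.4%, 22.2% and 35.9% in wild types 1 to 3. The lowest mutant, mutant 5, lay just above wild type 3, the highest wild type. The means were 48.2 ± 7.05% in mutants and 27.5 ± 7.41% in wild type (edgeR log2 change 1.32, SE 0.297, adjusted p = 0.38; DESeq2 log2 change 1.32, SE 0.335, adjusted p = 0.0374). The proximal site had 70.9 ± 13.5 CPM in mutants and 101.2 ± 12.4 CPM in wild type and the distal site 65.7 ± 10.3 CPM in mutants and 40.4 ± 19.7 CPM in wild type, and the sum of both sites did not pass the test (edgeR log2 change -0.11, SE 0.145, adjusted p = 0.664). The intervals of single libraries were at most 5.37 points wide at 1330 to 2169 reads. They cover counting error only and leave out the spread between mice, which the SDs above give.

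Ccnyl1, a cyclin Y-like protein, had distal shares of 81%, 83.8%, 68.3%, 83.5% and 52.9% in mutants 1 to 5, against 25.8%, 17.6% and 50.9% in wild types 1 to 3. Mutant 5 was only just above wild type 3. The means were 73.9 ± 13.3% in mutants and 31.5 ± 17.4% in wild type (edgeR log2 change 2.82, SE 0.624, adjusted p = 0.38; DESeq2 log2 change 2.85, SE 0.701, adjusted p = 0.0374), and with 17 to 115 reads a library's 95% Clopper-Pearson interval was up to 49.2 points wide. Ccdc32, which encodes a coiled-coil domain protein, had distal shares of 25.3%, 28.5%, 17.1%, 24.1% and 7.29% in mutants 1 to 5, against 3.12%, 2.58% and 9.86% in wild types 1 to 3. Here mutant 5 lay below wild type 3, so the genotypes overlapped, and the means were 20.4 ± 8.45% in mutants and 5.19 ± 4.06% in wild type (edgeR log2 change 2.31, SE 0.608, adjusted p = 0.38; DESeq2 log2 change 2.36, SE 0.608, adjusted p = 0.0396). Its proximal site had 32.2 ± 2.32 CPM in mutants and 33.6 ± 1.64 CPM in wild type and its distal site 8.63 ± 4.08 CPM in mutants and 1.88 ± 1.52 CPM in wild type. Ap1b1, the β subunit of the AP-1 clathrin adaptor of the trans-Golgi network, used the distal site rarely in both genotypes, with 4.62%, 4.72%, 2.47%, 5.05% and 0.965% in mutants 1 to 5, against 0.279%, 0.104% and 1.48% in wild types 1 to 3. Mutant 5 again lay within the wild-type range, and the means were 3.57 ± 1.78% in mutants and 0.622 ± 0.75% in wild type (edgeR log2 change 2.76, SE 0.801, adjusted p = 0.38; DESeq2 log2 change 3.07, SE 0.773, adjusted p = 0.0374).

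Other pairs whose mutants all lay above the wild types, which the naming rule required and which therefore adds no support, included genes of trafficking, the nuclear envelope and RNA export. Trappc2, of the TRAPP vesicle tethering complex, stood at 61.7 ± 19% in mutants and 19.99 ± 16.5% in wild type, and Lemd3, a LEM domain protein of the inner nuclear membrane, at 78.2 ± 10.8% in mutants and 46 ± 17.7% in wild type. Lrp1b, a large receptor of the LDL receptor family, stood at 29.9 ± 5.92% in mutants and 10.3 ± 3.45% in wild type (edgeR log2 change 1.83, SE 0.392, adjusted p = 0.38), and Alyref2, an mRNA export adaptor, at 57.3 ± 2.52% in mutants and 43.5 ± 11.9% in wild type. For the zinc finger gene Zfp868 the shares were 59 ± 3.91% in mutants and 41.2 ± 7.21% in wild type, for Tmem29 39.3 ± 10.3% in mutants and 18.8 ± 3.7% in wild type and for Tmem62 74.3 ± 5.5% in mutants and 61.5 ± 5.16% in wild type. The edgeR log2 changes of these 7 ran from 0.81 for Alyref2 to 2.87 for Trappc2, each at an adjusted p of 0.38, and DESeq2 called 0 of them. Their mean coverage was low, from 61.6 to 178 reads per library. In Trappc2 and Lemd3, mutants 3 and 5 lay just above wild type 3 (40.3% and 41.7% against 38.1% for Trappc2, 67.3% and 65.6% against 65.1% for Lemd3).

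Toward the proximal site, DESeq2 called Cnpy4 and Dnm1. Cnpy4, of the canopy family of endoplasmic reticulum proteins, had distal shares of 21.5%, 18.8%, 27.9%, 27.7% and 43.1% in mutants 1 to 5, against 56.2%, 66.7% and 48.4% in wild types 1 to 3. The genotypes did not overlap, with mutant 5 nearest to wild type 3. The means were 27.8 ± 9.42% in mutants and 57.1 ± 9.17% in wild type (edgeR log2 change -1.85, SE 0.42, adjusted p = 0.38; DESeq2 log2 change -1.85, SE 0.469, adjusted p = 0.0374). Its proximal site had 8.58 ± 2.31 CPM in mutants and 3.32 ± 0.925 CPM in wild type and its distal site 3.15 ± 0.657 CPM in mutants and 4.35 ± 0.481 CPM in wild type. Dnm1, the dynamin that cuts synaptic vesicles from the presynaptic membrane, ended mostly at the distal site, with shares of 89.6%, 92.4%, 92.5%, 91% and 96.1% in mutants 1 to 5, against 98.7%, 98.7% and 95.9% in wild types 1 to 3. Mutant 5 lay above wild type 3, so the genotypes overlapped by a small margin. The means were 92.3 ± 2.42% in mutants and 97.8 ± 1.6% in wild type (edgeR log2 change -1.89, SE 0.455, adjusted p = 0.38; DESeq2 log2 change -1.94, SE 0.497, adjusted p = 0.0374). The proximal site of Dnm1 had 6.91 ± 1.5 CPM in mutants and 1.84 ± 1.46 CPM in wild type, beside 86.1 ± 15.2 CPM in mutants and 77.9 ± 28.5 CPM in wild type at the distal site.

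The 9 other named pairs whose mutants all lay below the wild types had smaller differences than Cnpy4. Tead1, a transcription factor at the end of the Hippo pathway, had distal shares of 65.9 ± 2.83% in mutants and 74.1 ± 2.31% in wild type. Slc1a4, a neutral amino acid transporter that carries serine, had 68.5 ± 3.92% in mutants and 76.4 ± 3.43% in wild type. Sumf1, the enzyme that activates lysosomal sulfatases, had 53.5 ± 5.1% in mutants and 64.3 ± 3.02% in wild type, and Dsel, a dermatan sulfate epimerase-like protein, had 12.8 ± 4.51% in mutants and 22.1 ± 3.19% in wild type. The tRNA methyltransferase Trmt5 had 39.6 ± 4.3% in mutants and 52.5 ± 3.9% in wild type, the nuclear envelope protein Tmem209 had 5.56 ± 2.64% in mutants and 17.8 ± 9.996% in wild type, and Tlnrd1, which holds a talin rod domain, had 57.8 ± 4.24% in mutants and 65.3 ± 2.42% in wild type. For Leng9 the shares were 37.3 ± 5.87% in mutants and 47.1 ± 2.08% in wild type, and for Zswim5 65 ± 4.43% in mutants and 74.4 ± 5.3% in wild type. Of these 9, edgeR called 0 (adjusted p from 0.38 to 0.401), with 5 at an unadjusted p under 0.05, and DESeq2 called 0.

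**Figure D4:**
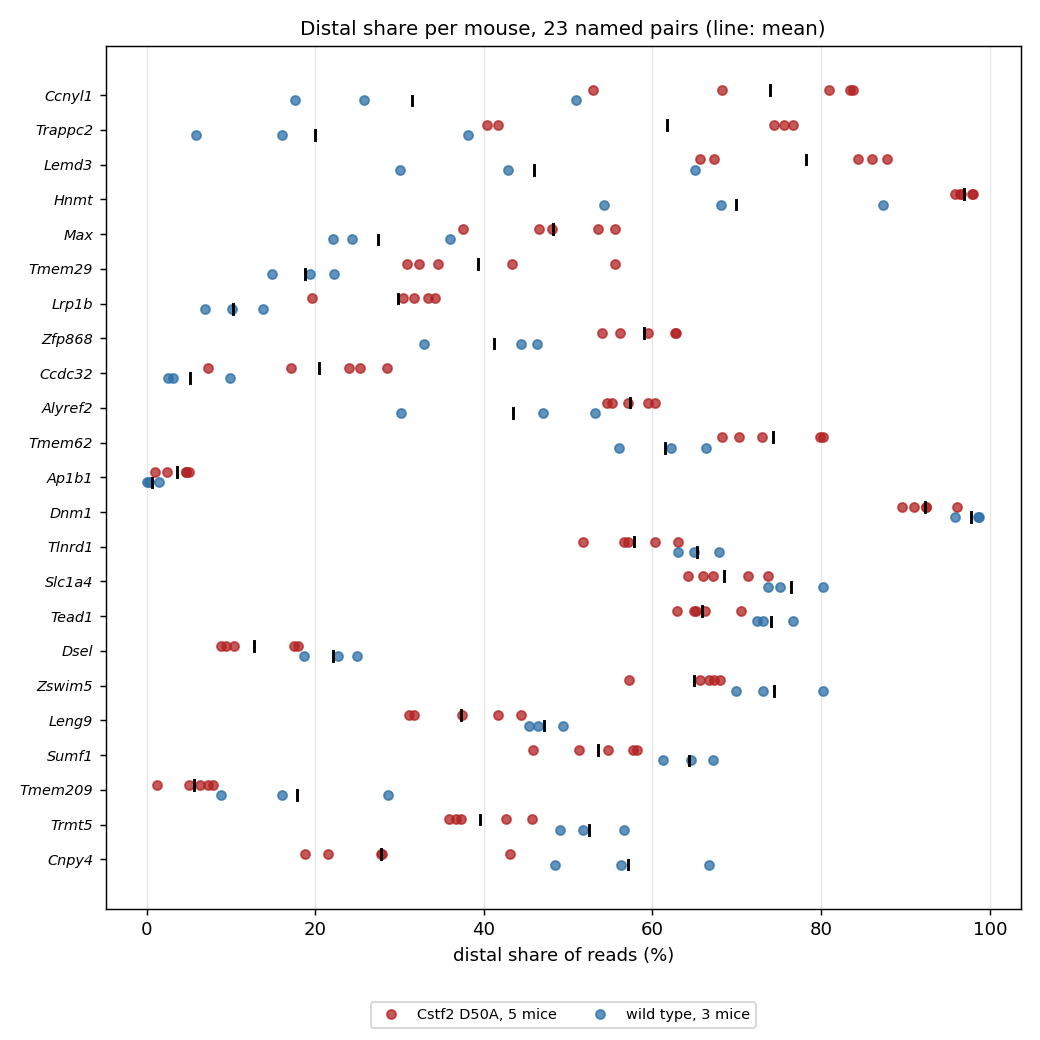
Distal share of reads in percent (horizontal axis) in each mouse for 23 named pairs (rows), with 5 Cstf2 D50A mice above 3 wild-type mice in each row and the mean as a line. The rows run from Ccnyl1, with the largest difference toward the distal site, to Cnpy4, with the largest toward the proximal site, and the points overlap in Ccdc32, Ap1b1 and Dnm1.

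Gene lists are described next by their members in the class, beside 8.67% of all pairs pointing distally and 4.25% proximally at an unadjusted p under 0.05. Together with the histamine and monoamine list above, these lists held 141 members, of which 15 pointed distally and 6 proximally, and with the granule cell marker sum as a term these counts were 5 (background 0.901%) and 0 (background 0.978%). Genes of the synapse come first. The class held 8 of 55 listed genes of the glutamatergic postsynapse. With the median log2 change at 0.16, 1 pointed distally and 1 proximally at an unadjusted p under 0.05. Gria1, the GluA1 subunit of AMPA receptors, had distal shares of 28.5%, 28.7%, 25.9%, 20.4% and 18.3% in mutants 1 to 5, against 15.5%, 18.2% and 18.3% in wild types 1 to 3. Mutant 5 lay at the level of wild types 2 and 3, and the other mutants lay above them (edgeR log2 change 0.61, SE 0.224, adjusted p = 0.38). Dlg2, a scaffold of the postsynaptic density, ended at the proximal site in nearly all reads, with a distal share of 0.726 ± 0.312% in mutants and 0.478 ± 0.0983% in wild type. Members made up 11 of 67 listed genes of synaptic vesicles and release. There were 0 with an unadjusted p under 0.05 in the distal and 1 in the proximal direction (median log2 change 0.15). Dnm1, above, was the member past that mark. Syt11, a synaptotagmin, had 38.5 ± 5.35% in mutants and 42.6 ± 7.65% in wild type. Of 30 listed genes of the GABAergic synapse, 4 were members. An unadjusted p under 0.05 was found for 0 with a more distal and 0 with a more proximal balance, and the median log2 change was -0.0662. Among them Pvalb, the calcium buffer parvalbumin of fast-spiking interneurons and Purkinje cells, had 49.9 ± 6.05% in mutants and 56.6 ± 1.83% in wild type, Npy, the neuropeptide Y gene, 0.836 ± 0.464% in mutants and 0.432 ± 0.0757% in wild type, and Gabarap, which binds GABA-A receptors and works in autophagy, 5.45 ± 0.855% in mutants and 5.45 ± 0.586% in wild type. The class held 5 of 68 listed voltage-gated and related ion channel genes. With the median log2 change at 0.0208, 0 pointed distally and 0 proximally at an unadjusted p under 0.05. The potassium channel genes Kcnj4 and Kcnc1 and the pacemaker channel gene Hcn3 had shares of 51.4 ± 2.76% in mutants and 48.6 ± 3.05% in wild type, 84.6 ± 3.78% in mutants and 81.9 ± 5.49% in wild type and 24.9 ± 5.28% in mutants and 29.2 ± 4.57% in wild type. Members made up 11 of 70 listed axon guidance genes. There were 0 with an unadjusted p under 0.05 in the distal and 2 in the proximal direction (median log2 change -0.0893). Sema4b, a membrane-bound semaphorin, had 53.3 ± 14% in mutants and 76.7 ± 12.3% in wild type (edgeR log2 change -1.48, SE 0.57, adjusted p = 0.38; log2 change 0.23 with the granule cell marker sum as a term), with mutant 5 at 76.5% within the wild-type range, while Neo1, the neogenin receptor, had 7.78 ± 2.66% in mutants and 11.6 ± 3.48% in wild type. Srgap2, a regulator of dendritic spines, had 98.1 ± 1.84% in mutants and 97 ± 0.864% in wild type.

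Genes that regulate RNA and chromatin were examined as further groups. Of 39 listed genes of the cleavage and polyadenylation machinery, 3 were members. An unadjusted p under 0.05 was found for 0 with a more distal and 0 with a more proximal balance, and the median log2 change was 0.10. Pabpc1, the cytoplasmic poly(A)-binding protein, stood at 63.2 ± 3.45% in mutants and 61.5 ± 5.1% in wild type, and Hnrnph1, which binds G-rich RNA, at 99.2 ± 0.145% in mutants and 99.3 ± 0.156% in wild type. Cstf2 itself is no member, since its sites lie 2361 bases apart; its distal share was 98 ± 0.346% in mutants and 97.5 ± 0.406% in wild type and its level 8.52 ± 0.146 log2 CPM in mutants and 8.52 ± 0.129 in wild type. A coding substitution need not change the gene's count. The class held 11 of 59 listed RNA-binding and splicing genes. With the median log2 change at 0.0504, 2 pointed distally and 0 proximally at an unadjusted p under 0.05. Celf1 stood at 83.9 ± 2.53% in mutants and 86.6 ± 3.13% in wild type. Members made up 13 of 94 listed chromatin genes. There were 2 with an unadjusted p under 0.05 in the distal and 0 in the proximal direction (median log2 change 0.36). Smarcd3, a neuronal BAF remodelling subunit, had 1.5 ± 0.679% in mutants and 0.589 ± 0.183% in wild type (edgeR log2 change 1.31, SE 0.43, adjusted p = 0.38; log2 change -0.0596 with the granule cell marker sum as a term), and the nucleosome-binding gene Hmgn1 had 99.3 ± 0.18% in mutants and 99.1 ± 0.0495% in wild type. Of 64 listed intellectual disability genes, 12 were members. An unadjusted p under 0.05 was found for 2 with a more distal and 1 with a more proximal balance, and the median log2 change was 0.30. Kmt2d, the histone H3 lysine 4 methyltransferase of Kabuki syndrome, had distal shares of 91.5%, 92.3%, 87.1%, 87% and 76.5% in mutants 1 to 5, against 63.4%, 68.3% and 84.2% in wild types 1 to 3 (edgeR log2 change 1.38, SE 0.484, adjusted p = 0.38). Mutant 5 lay below wild type 3. Dyrk1a, a dosage-sensitive kinase, had 91.2 ± 3.03% in mutants and 94.5 ± 1.44% in wild type.

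Signalling and protein turnover follow. The class held 11 of 80 listed genes of MAPK, neurotrophin and mTOR signalling. With the median log2 change at -0.18, 0 pointed distally and 1 proximally at an unadjusted p under 0.05. Mapk9, the JNK2 kinase, had distal shares of 38.4%, 40.3%, 37.5%, 37.8% and 50.7% in mutants 1 to 5, against 56.1%, 53.9% and 41.5% in wild types 1 to 3. Mutants 1 to 4 lay below all wild types, and mutant 5 lay among the wild types (edgeR log2 change -0.56, SE 0.257, adjusted p = 0.386). Gab2, a docking protein of receptor tyrosine kinases, had 89.2 ± 4.59% in mutants and 94.3 ± 0.707% in wild type (edgeR log2 change -0.90, SE 0.385, adjusted p = 0.38; log2 change 0.0286 with the granule cell marker sum as a term). Members made up 24 of 115 listed ubiquitin and proteasome genes. There were 4 with an unadjusted p under 0.05 in the distal and 0 in the proximal direction (median log2 change 0.14). Usp7, a deubiquitinase, had 29.6 ± 7.36% in mutants and 17.3 ± 7.96% in wild type (edgeR log2 change 1.06, SE 0.396, adjusted p = 0.38), with mutants at 19.6% to 37.8% and wild types at 10.6% to 26.1%. Ubb, a polyubiquitin gene, and Uchl1, an abundant neuronal hydrolase, ended at the proximal site in nearly all reads, with distal shares of 0.236 ± 0.0693% in mutants and 0.318 ± 0.0275% in wild type for Ubb and 0.16 ± 0.0285% in mutants and 0.195 ± 0.0818% in wild type for Uchl1. Of 82 listed oxidative phosphorylation genes, 13 were members. An unadjusted p under 0.05 was found for 1 with a more distal and 0 with a more proximal balance, and the median log2 change was 0.26. Ndufb5, a subunit of respiratory complex I, had distal shares of 15.7%, 13.1%, 7.86%, 7.06% and 3.0% in mutants 1 to 5, against 2.94%, 2.84% and 6.38% in wild types 1 to 3. Mutant 5 lay at the level of wild types 1 and 2 (edgeR log2 change 1.21, SE 0.537, adjusted p = 0.381; log2 change -0.57 with the granule cell marker sum as a term), and Atp5b, the β subunit of the ATP synthase, had 1.06 ± 0.243% in mutants and 0.872 ± 0.21% in wild type. The class held 18 of 83 listed cytosolic ribosomal protein genes. With the median log2 change at 0.16, 2 pointed distally and 0 proximally at an unadjusted p under 0.05. The median distal share of these ribosomal members was 1.04%, beside 56.4% for the class, and 1 of 18 had a share over 50%. Rpl37a had 1.84 ± 0.598% in mutants and 1.13 ± 0.182% in wild type (edgeR log2 change 0.66, SE 0.273, adjusted p = 0.38; log2 change -0.16 with the granule cell marker sum as a term), Rps25 0.205 ± 0.0892% in mutants and 0.118 ± 0.016% in wild type and Rpl13a 1.38 ± 0.267% in mutants and 1.23 ± 0.26% in wild type. Near-identical pseudogene copies make counts of ribosomal protein genes uncertain.

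Marker genes that were members held both kinds of pattern. The astrocyte water channel gene Aqp4, with sites 104 bases apart, had distal shares of 80.2%, 82.1%, 87%, 85.5% and 92.6% in mutants 1 to 5, against 93.2%, 93.1% and 88.3% in wild types 1 to 3. Mutants 1 to 4 lay below all wild types and mutant 5 among them (edgeR log2 change -0.86, SE 0.362, adjusted p = 0.38; log2 change 0.30 with the granule cell marker sum as a term). The myelin gene Mbp stood at 99.7 ± 0.0448% in mutants and 99.8 ± 0.0562% in wild type. The microglial receptor gene Csf1r had 96.7 ± 0.486% in mutants and 96.7 ± 0.176% in wild type. For the granule cell transcription factors Neurod1 and Zic2 the shares were 1.9 ± 0.628% in mutants and 1.81 ± 0.362% in wild type for Neurod1 and 91.1 ± 2.26% in mutants and 93.1 ± 3.95% in wild type for Zic2, and none of these but Aqp4 and Mbp (adjusted p = 0.381 for Mbp) had an unadjusted p under 0.05 in edgeR. The cortical genes Neurod6, Cux2 and Wfs1 had 74.9 ± 13.8% in mutants and 71.7 ± 13.7% in wild type, 44.7 ± 9.09% in mutants and 57.6 ± 10.2% in wild type and 99.3 ± 0.336% in mutants and 99 ± 0.512% in wild type. The striatal dopamine receptor gene Drd1 had 1.41 ± 0.654% in mutants and 0.857 ± 0.157% in wild type, and Ttr and Otx2, genes of the choroid plexus, had 2.97 ± 1.69% in mutants and 1.84 ± 1.2% in wild type and 27.4 ± 10.9% in mutants and 16.8 ± 5.69% in wild type.

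The summed reads of both sites give the level of each transcript, as log2 CPM after TMM scaling. edgeR called 0 of 1877 members (smallest adjusted p 0.343) and 0 of all pairs (0%). At an unadjusted p under 0.05, 133 members were higher in mutants, beside 7.29% of all pairs, and 131 were lower, beside 7.05%. The members' shares of 7.09% and 6.98% are near these backgrounds, and the median log2 change was -0.00261. DESeq2 called 8 members higher (background 0.317%) and 0 lower (background 0.0127%). Genotypes did not overlap in 49 members that were higher (background 2.45%) and 38 that were lower (background 2.31%). The unadjusted counts of higher members were 73, 77, 115, 76 and 247 without mutants 1 to 5 in turn, beside 3.78%, 4.04%, 6.21%, 4.18% and 15.2% of all pairs. Without wild types 1 to 3 in turn they were 58, 70 and 290, beside 2.74%, 3.44% and 18.4%. Counts of lower members were 51, 51, 97, 69 and 246 without mutants 1 to 5 in turn, beside 2.64%, 2.72%, 5.45%, 3.33% and 13.6% of all pairs. Without wild types 1 to 3 in turn they were 28, 103 and 279, beside 1.57%, 5.89% and 14.5%. Without mutant 5, edgeR called 8 members higher (background 0.216%) and 14 lower (background 0.648%). Among the lower ones were the cerebellar cell markers Neurod1 (adjusted p = 8.64e-05), Pvalb (adjusted p = 0.000512) and Zic2 (adjusted p = 0.00846), beside genes outside these marker lists. Among the higher ones were Phyhipl (adjusted p = 0.0172), Pdgfra (adjusted p = 0.0209), Bod1l (adjusted p = 0.0342) and Rgs14 (adjusted p = 0.036), described below. In that fit genotype and granule cell marker level cannot be told apart, and in the fit of all libraries only mutant 5 separates them. With the granule cell marker sum as a term in the fit of all libraries 1 member was higher (background 0.165%) and 3 lower (background 0.33%) at an unadjusted p under 0.05.

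Pdgfra, the receptor that marks oligodendrocyte precursor cells, had levels of 5.04, 5.18, 4.94, 4.95 and 3.8 log2 CPM in mutants 1 to 5, against 3.13, 2.7 and 3.94 in wild types 1 to 3. Mutants 1 to 4 lay close together above all wild types, and mutant 5 lay just below wild type 3 (edgeR log2 change 1.53, SE 0.358, adjusted p = 0.343; DESeq2 log2 change 1.53, SE 0.344, adjusted p = 0.0186). Phyhipl had levels of 6.26, 6.31, 6.13, 6.42 and 5.56 log2 CPM in mutants 1 to 5, against 4.87, 4.61 and 5.42 in wild types 1 to 3, with no overlap (edgeR log2 change 1.16, SE 0.237, adjusted p = 0.343; DESeq2 log2 change 1.16, SE 0.248, adjusted p = 0.0105). Its difference lay at the proximal site, which had 56.6 ± 18.2 CPM in mutants and 16 ± 12.4 CPM in wild type, beside 16.8 ± 1.84 CPM in mutants and 15.4 ± 1.4 CPM in wild type at the distal site 183 bases on. The distal share of Phyhipl was 24.6 ± 9.17% in mutants and 53.8 ± 20.2% in wild type (edgeR log2 change -1.91, SE 0.552, adjusted p = 0.38). Tnfrsf21, the death receptor DR6, which acts in axon pruning and myelination, had the opposite arrangement: 1.13 ± 0.13 CPM in mutants and 1.28 ± 0.251 CPM in wild type at the proximal site and 226 ± 56.2 CPM in mutants and 95.8 ± 50.6 CPM in wild type at the distal site, which held nearly all of its reads. Its level was 7.76 ± 0.346 log2 CPM in mutants and 6.52 ± 0.64 in wild type (DESeq2 log2 change 1.17, SE 0.293, adjusted p = 0.033), with mutant 5 at 7.24 and wild type 3 at 7.23. Rgs14, a regulator of G protein signalling, stood at 4.95 ± 0.436 log2 CPM in mutants and 3.61 ± 0.618 in wild type (DESeq2 log2 change 1.32, SE 0.31, adjusted p = 0.0322), and Xxylt1, a xylosyltransferase that extends sugars on Notch, at 3.68 ± 0.315 log2 CPM in mutants and 2.39 ± 0.745 in wild type (DESeq2 log2 change 1.23, SE 0.322, adjusted p = 0.0479). Bod1l stood at 2.61 ± 0.464 log2 CPM in mutants and 1.36 ± 0.476 in wild type (DESeq2 log2 change 1.32, SE 0.34, adjusted p = 0.043), and Myadm, named as a myeloid-associated differentiation marker, at 4.61 ± 0.165 log2 CPM in mutants and 3.64 ± 0.525 in wild type (DESeq2 log2 change 0.92, SE 0.241, adjusted p = 0.0479). Mtif2, the mitochondrial translation initiation factor, had 2.93 ± 0.625 log2 CPM in mutants and 1.04 ± 0.992 in wild type (DESeq2 log2 change 1.86, SE 0.462, adjusted p = 0.0328) with as few as 15 reads in a library. In the fit of all libraries edgeR called none of the 8 (adjusted p = 0.343 for each). Without mutant 5 it called Pdgfra, Phyhipl, Rgs14 and Bod1l, as given above. Over the alternatives the adjusted p of the 8 ran from 0.0105 for Phyhipl to 0.9999. Hnmt, described above for its sites, had 3.83 ± 0.819 log2 CPM in mutants and 2.24 ± 1.02 in wild type (edgeR log2 change 1.55, SE 0.52, adjusted p = 0.343).

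Lower in every mutant than in every wild type, as the naming rule required, were Maf, Lyz2, Ppp2r2d and Zfp868, among others not named here, and neither edgeR nor DESeq2 called any of these 4. Maf, a bZIP transcription factor, had levels of 3.19, 3.04, 3.19, 3.23 and 3.2 log2 CPM in mutants 1 to 5, against 4.18, 3.67 and 3.51 in wild types 1 to 3 (edgeR log2 change -0.64, SE 0.171, adjusted p = 0.343). Mutants lay close together, and the wild types were spread. Lyz2, a lysozyme of macrophages and microglia, had 4.0 ± 0.305 log2 CPM in mutants and 4.61 ± 0.299 in wild type (edgeR log2 change -0.62, SE 0.201, adjusted p = 0.343), beside microglia marker sums that overlapped between the genotypes. Ppp2r2d, a regulatory subunit of protein phosphatase 2A, had 5.67 ± 0.177 log2 CPM in mutants and 6.26 ± 0.327 in wild type (edgeR log2 change -0.61, SE 0.165, adjusted p = 0.343). Zfp868, a zinc finger gene, had 2.14 ± 0.212 log2 CPM in mutants and 2.68 ± 0.44 in wild type. Of 18 cytosolic ribosomal protein members, 11 were lower and 0 higher at an unadjusted p under 0.05 (median log2 change -0.52), and of 13 oxidative phosphorylation members 5 were lower and 0 higher (median -0.26), beside a median of 0.00687 and 7.05% lower over all pairs. The granule cell marker sums given above were lower in mutants 1 to 4 than in all wild types. With that sum as a term, 0 of the 18 ribosomal members (median -0.26) and 0 of the 13 oxidative phosphorylation members (median -0.13) were lower at an unadjusted p under 0.05, beside 0.33% of all pairs. The term nearly follows genotype and leaves little power, so these counts do not show where the lower levels come from, which was not tested.

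**Figure D5:**
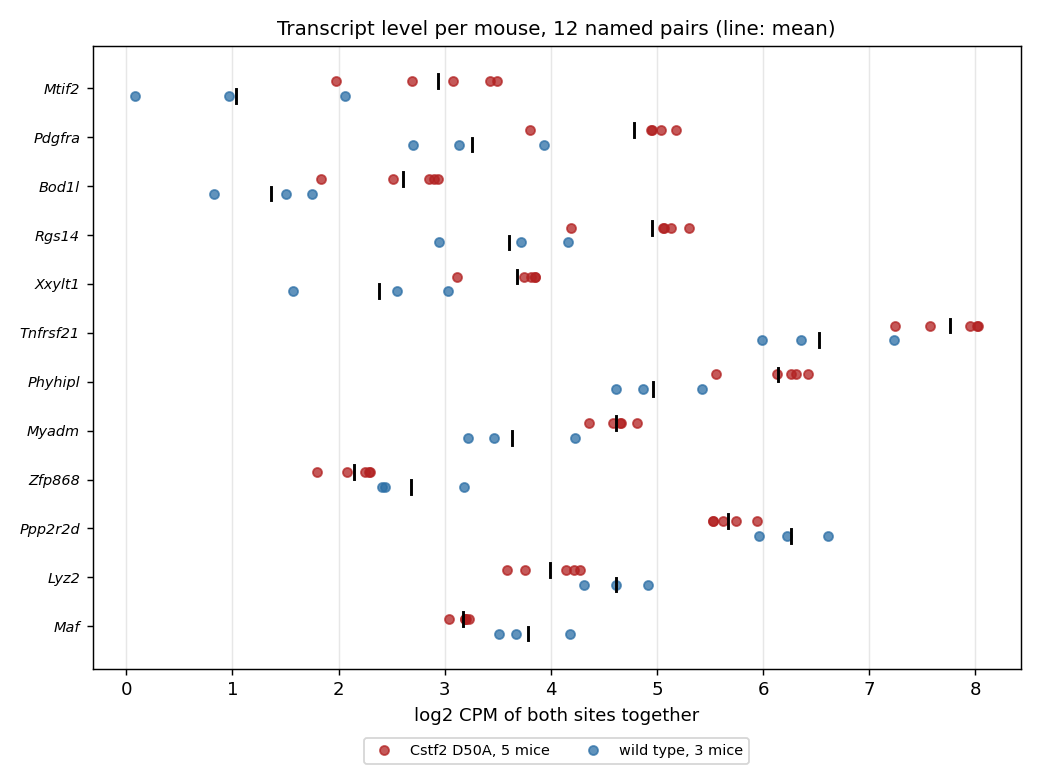
Level of both sites together in log2 CPM (horizontal axis) in each mouse for 12 named pairs (rows), with 5 Cstf2 D50A mice above 3 wild-type mice in each row and the mean as a line. In Rgs14, Xxylt1, Pdgfra and Phyhipl mutant 5 is the lowest of the mutants.

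A second table, which lists 932 of the 1877 genes, gives reads that ended in an upstream exon against the last exon, a readout that the choice of members did not use. Most reads of these genes ended in the last exon, whose share in the median gene was 95.7% in mutants and 95.4% in wild type, and it was under 90% in 291 genes. In all 932 genes and all libraries the last-exon count was no smaller than both of its sites' reads added up, so the tables may share reads. edgeR called 0 of the 932 and 0 of all 6001 pairs (0%). At an unadjusted p under 0.05, 10.8% of the 932 genes pointed toward the last exon (background 10.4%) and 3.86% toward the upstream exon (background 3.63%). DESeq2 called 1, Mtif2, toward the last exon (background 0.0667%) and 0 toward the upstream exon (background 0.0167%). Mtif2 had 49.9 ± 10.6% in mutants and 17.6 ± 12.5% in wild type (DESeq2 log2 change 2.42, adjusted p = 0.0442; edgeR log2 change 2.37, SE 0.513, adjusted p = 0.282). Genotypes did not overlap in 47 genes toward the last exon (background 4.23%) and 16 toward the upstream exon (background 1.65%). The next 5 genes were picked for no overlap, which therefore adds no support. Mrps31, of the mitochondrial ribosome, had 80.2 ± 2.73% in mutants and 65.1 ± 3.66% in wild type (edgeR log2 change 1.1, SE 0.356, adjusted p = 0.282). Adpgk, an ADP-dependent glucokinase, had 69.3 ± 11.6% in mutants and 49 ± 10.8% in wild type, and Setdb1, a histone H3 lysine 9 methyltransferase, had 75.3 ± 3.73% in mutants and 62.8 ± 5.79% in wild type. Toward the upstream exon, Ccdc90b had 68.5 ± 6.0% in mutants and 81.3 ± 2.4% in wild type (edgeR log2 change -1.01, SE 0.345, adjusted p = 0.292) and Tbc1d8 67.2 ± 5.78% in mutants and 76.9 ± 0.933% in wild type. For Max the last exon held 99.6 ± 0.245% in mutants and 99.4 ± 0.213% in wild type, and for Dnm1 85 ± 4.55% in mutants and 87.1 ± 8.6% in wild type, with no difference past the test. The counts toward the last exon were 54, 49, 88, 77 and 162 without mutants 1 to 5 in turn, beside 6.52%, 6.42%, 9.18%, 7.72% and 17.5% of all genes of the table. Without wild types 1 to 3 in turn they were 51, 62 and 147, beside 4.65%, 5.33% and 16%. Toward the upstream exon they were 27, 29, 30, 24 and 54 without mutants 1 to 5 in turn, beside 2.77%, 2.55%, 3.17%, 2.58% and 5.47% of all genes of the table. Without wild types 1 to 3 in turn they were 28, 12 and 59, beside 3.03%, 1.73% and 5.68%. edgeR called 22 genes toward the last exon and 7 toward the upstream exon without mutant 5 (backgrounds 2.85% and 1.08%), and 7 and 8 without wild type 3 (backgrounds 2% and 0.667%). Without mutant 5, genotype and granule cell marker level cannot be told apart, and in the fit of all libraries only mutant 5 separates them. With the granule cell marker sum as a term, 14 genes toward the last exon (background 1.27%) and 8 toward the upstream exon (background 0.767%) had an unadjusted p under 0.05.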

How the data were processed

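The authors deposited raw read counts per polyadenylation site and library, per the file headers, as whole-number counts whose totals differ between libraries. Libraries were QuantSeq REV 3′ end libraries from total brain RNA, per the labels' protocols. Positions are on mm9, and FastQC 0.11.3, STAR 2.5 and HTSeq 0.6.0 were used in roles that are not stated, per the submitters' processing notes. The picking of sites, any filter on internal priming and the use of strand in counting are not given in the sources used here. Overlapping genes and near-identical copies are therefore uncertain. Each value column carries a library code that 1 sample's title also holds. The order of the sites fitted the RefSeq strand (GRCm38.p6, strand only) in 1479 of 1481 members with a match.

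Samples were grouped by the genotype label, replicate numbers only name mice, and nothing in the labels pairs them. Members were fixed by distance and reads, and the class, the lists of genes and the naming rule were chosen with earlier results of these data known. All 1877 members also passed the filter of the fits (a mean of 20 reads and 10 reads in all at each site), and 22 of them carry the counts of another pair (most are α-protocadherin genes), which are not named. Libraries of a genotype differed by a chi-square per degree of freedom of 3.12 to 60.1, so none was a copy.

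Usage was tested with edgeR 4.0.16 (glmQLFTest, R 4.3.3) on the counts of both sites with library as a block and site by genotype as the coefficient, over 7876 pairs; a positive log2 change means more distal reads in mutants. Levels used TMM scaling and genotype. A standard error is the size of the log2 change divided by the root of its F statistic. Benjamini-Hochberg adjustment ran over the whole table, with a threshold of 0.05. DESeq2 1.42.0 and limma 3.58.1, other filters, scalings and pseudocounts, narrower distances, leaving out pairs with shared counts and leaving out each mouse were alternatives, and the granule cell marker sum as a term was added after seeing the data. The deposited tables gave each library 9616953 to 17530761 reads, and intervals on shares cover counting error only. Shares are given as mean ± SD. On simulated counts over 7876 pairs, 97.5% of 200 usage changes of 2 on the log2 scale and 99.5% of 200 level changes of 1.5 were recovered. False calls numbered 5 for usage and 6 for levels. The changed pairs were drawn from well-covered pairs, for usage only from those that used both sites. The simulated noise was independent between pairs, without variation shared within a library. The simulation therefore checks the fits and does not show which changes could be detected in these mice.

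Named pairs were those with a mean of 50 or more reads, no overlap of the genotypes and the largest differences (10 per direction for usage, 5 for levels), every DESeq2 call, the 5 with the most reads, those at the ends of the distance range and, per gene list, the 2 with the most reads and the one with the smallest p; in the second table the 5 with the largest difference per direction were considered, a choice made after seeing the data. A few of the pairs that these rules name are not reported here.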

Additional observations from a re-analysis of the deposited data

Results flagged for a closer look

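Dixon's criterion was applied to 99 sets of 5 mutant values, for the named pairs and for the class's median log2 ratios. In 8 sets, all of named pairs, 1 mouse lay far from the other 4. Chance alone marks about 1 set in 20, and the wild-type sets of 3 were not tested. The distal share of Lrp1b was 19.6%, beside 30.4% to 34.2% in the other mutants, for mutant 5. For Srgap2, mutant 5 had a distal share of 94.8%, beside 98.5% to 99.1% in the other mutants, and for Mapk9 it had 50.7%, beside 37.5% to 40.3% in the other mutants. Mutant 3 stood apart in Zswim5, with a distal share of 57.2%, beside 65.6% to 68% in the other mutants. The level of Rgs14 in mutant 5 was 4.19, beside 5.06 to 5.3 in the other mutants (log2 CPM), that of Xxylt1 was 3.12, beside 3.75 to 3.85 in the other mutants, and that of Pdgfra was 3.8, beside 4.94 to 5.18 in the other mutants. In mutant 2 the level of Maf was 3.04, beside 3.19 to 3.23 in the other mutants. Mutant 5 was also the mutant whose granule cell marker sum was 2148 CPM, beside 487 to 597 CPM in the other mutants; the part of this in its 6 values was not tested.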

How the results depend on the processing

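The difference in the median log2 ratio of the class kept its sign under all alternatives run (0.0603 to 0.176) and moved by less than the spread between libraries. Counts of pairs did not. Leaving out 1 library at a time gave 39 to 317 distal and 22 to 205 proximal pairs at an unadjusted p under 0.05, and 0 to 1 called toward the distal site. It gave 58 to 290 pairs with higher and 28 to 279 with lower levels, and 0 to 8 called higher and 0 to 14 called lower. In the second table it gave 49 to 162 genes toward the last exon and 12 to 59 toward the upstream exon, and 0 to 22 and 0 to 8 called. DESeq2 called 5 distal and 2 proximal pairs, 8 with higher levels and 1 toward the last exon. At an unadjusted DESeq2 p under 0.05, 63 genes (6.76%, background 8%) pointed toward the last exon. Toward the upstream exon there were 27 (2.9%, background 2.73%). With the granule cell marker sum as a term, chosen after seeing the data, 20 pairs pointed distally and 15 proximally, 1 was higher and 3 lower, and 14 and 8 genes pointed toward the last and the upstream exon. The cause was not tested. Of 863 alternative values for 61 named results, 834 kept direction and side of the threshold, 23 passed it where the reported one did not, and 6 turned sign, all with the marker term: Sema4b 0.23, Gab2 0.0286, Ndufb5 -0.57, Rpl37a -0.16, Smarcd3 -0.0596 and Aqp4 0.30 on the log2 scale. No paired analysis was possible because the labels give the mice no shared replicate numbers. Depth limits pairs with few reads most, and p-values set the genotype difference against the spread between these mice.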
